A study of Homo sapiens with 36 samples.

Results

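HMC3 cells kept for 24 h in 50 µM perfluorooctane sulfonate (PFOS) and then for a further 24 h in PFOS-free medium were set against cells harvested at the end of the same 24 h exposure. The comparison used 6 RNA-seq libraries, 3 per group, which are all those labelled with this dose, of 18 RNA-seq libraries and 36 libraries in the series. It covered every gene of the count table, of which 9847 of 25344 symbols had enough counts to be tested. No vehicle library entered the contrast, so withdrawal of PFOS, a further day of culture and fresh medium cannot be told apart in it. The same change over time in vehicle cells and in cells given 25 µM PFOS is therefore given beside it.

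HMC3 is an established human microglial cell line, and PFOS is a persistent perfluorinated surfactant whose shape resembles a fatty acid. Besides both 50 µM groups, the study had vehicle and 25 µM PFOS at 24 h and after recovery, each with 3 RNA-seq libraries that the labels call biological replicates. Nothing in the labels says that these came from separate cultures, so p-values measure only the spread between libraries. In the main edgeR fit that spread was pooled over all 18 RNA-seq libraries. The 3 recovery libraries at 50 µM differed from one another more than the replicates of any other group. The p-values and standard errors printed for 50 µM can therefore understate the spread of the groups compared. The 18 H3K27ac CUT&Tag libraries were not analysed here. Markers that define microglia in tissue were largely absent. Of 15, 9 had no count in any of the 6 libraries (among them AIF1, CX3CR1, TMEM119, PTPRC and SALL1), and the summed level of all 15 was 280 to 317 CPM (counts scaled to a common library size) at 24 h and 265 to 382 CPM after recovery. Fibroblast and mesenchymal markers summed to 1690 to 1960 CPM and 1110 to 2430 CPM. Markers of T and B cells and of endothelium were at or near 0.

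Cells that run short of amino acids, or whose endoplasmic reticulum (ER) fills with unfolded protein, slow translation and make the transcription factor ATF4. ATF4 and its partner CHOP drive genes for amino acid synthesis and uptake, for charging of transfer RNA and for stress regulators, while ATF6 and XBP1 drive ER chaperones in the unfolded protein response. Sterol synthesis genes answer to SREBP factors, which are active when ER cholesterol is low, and antiviral genes answer to interferon through STAT and IRF factors.

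After recovery 1920 genes were higher and 1357 were lower than at 24 h by edgeR's quasi-likelihood test at a Benjamini-Hochberg adjusted p under 0.05 ("called" below), together 33.3% of all genes tested. By direction these were 19.5% and 13.8%. Of them, 1190 were at least 2-fold higher and 650 at least 2-fold lower, 18.7% of genes tested. The 3 recovery values and the 3 values at 24 h did not overlap for 37.8% of genes tested, and 28.6% were called as well. The median log2 change over all genes tested was 0, a centre that the scaling between libraries sets. In vehicle cells over the same interval 33 genes were higher (0.335%) and 63 lower (0.64%), 0.975% in all, and at 25 µM 67 were higher (0.68%) and 82 lower (0.833%), 1.51% in all. The difference between the change at 50 µM and that in vehicle was itself called for 1147 genes in the positive (11.6%) and 731 in the negative direction (7.42%), 19.1% in all. A fit of the 6 libraries alone called 955 higher and 442 lower genes, a fit that takes the spread from those 6. The matching fit at 25 µM called 658 higher and 550 lower, and that in vehicle cells 41 higher and 87 lower. How far both doses differ in their number of calls therefore depends on which libraries give the spread. At 50 µM fewer genes were called with the spread of the 6 libraries than with that pooled over all 18. The p-values and standard errors of the genes below come from the pooled fit and carry this limit.

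**Figure D1:**
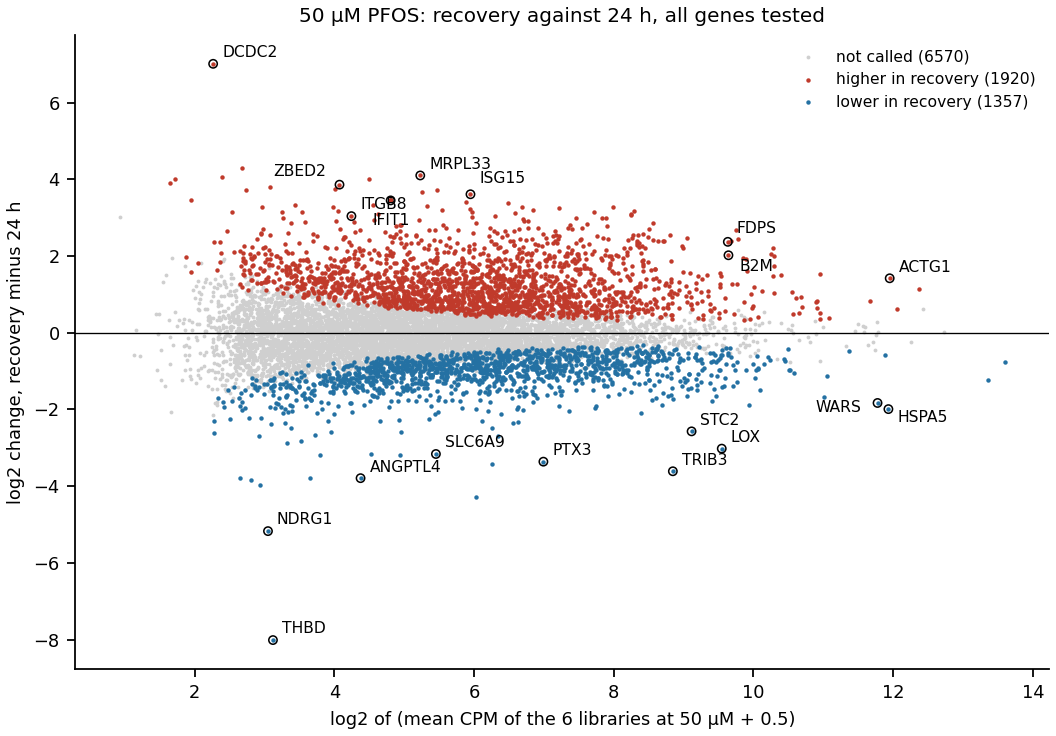
Each point is a gene tested at 50 µM, with the log2 of its mean CPM plus 0.5 on the x axis and its log2 change from 24 h to recovery on the y axis. Red points (1920) were called higher and blue points (1357) lower after recovery, and the circled genes run from DCDC2 at 7.01 to THBD at -8.01.

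The 3 recovery libraries differed from one another more than the replicates of any other group, and this touches every count given here. Their pairwise Pearson correlations of log2 CPM across genes were 0.849, 0.937 and 0.915, where all other replicate pairs reached 0.951 or more. Among the genes called higher, recovery replicate 2 held the highest of the 3 recovery values for 83%, and among those called lower it held the lowest for 75.2%, against 42.8% and 40.4% of all genes tested. Without that library 1352 genes were called higher and 870 lower, and 1103 were changed at least 2-fold instead of 1840. Without recovery replicate 1, 2767 were changed at least 2-fold. Of the genes named below, BAX, DERL2, GADD45A, IRF1, LDHA, MED16, PSMB9, RRM2, SELK, SOD2, UQCRC1 and VPS18 lost their call without replicate 2. CALR, CANX, CRELD2, HSP90B1, XBP1, CCNB2 and ERO1LB were not followed in this way. Depth was low in all 6, at 967960, 973434 and 1931726 counts at 24 h and 841252, 1228047 and 755905 after recovery.

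The median log2 change of each gene list, taken per recovery library against the mean of the 24 h libraries, separated lists on which the 3 libraries were alike from lists on which they were graded. Stress, amino acid, ER, sterol, interferon and mitosis lists had medians of 1 sign and nearer size in all 3. Ribosomal protein, respiratory chain and proteasome genes moved most in replicate 2 and least in replicate 1, and collagen processing genes and integrins had their lowest median in replicate 2. The lists and the genes in them are described in that order.

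**Figure D2:**
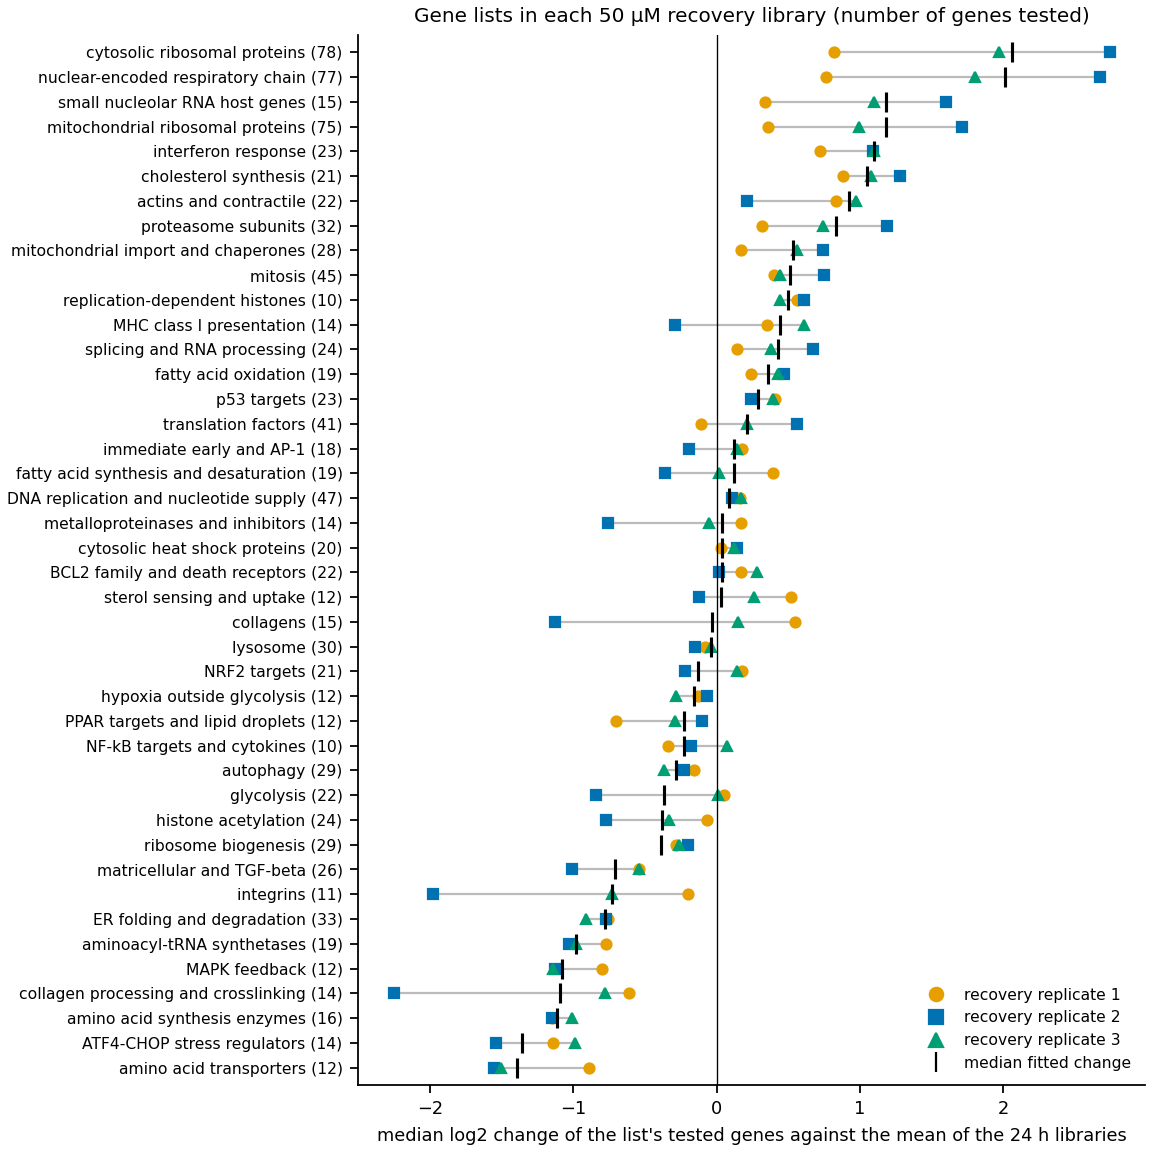
Each row is a gene list with the number of its genes tested in brackets, and the x axis is the median log2 change of those genes in recovery replicate 1 (circle), 2 (square) and 3 (triangle) against the mean of the 24 h libraries. The bar marks the median fitted change: ribosomal proteins spread from 0.82 to 2.74, whereas amino acid synthesis enzymes lay between -1.15 and -1.01.

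The stress program of ATF4 and CHOP fell. Of 14 regulators tested, 9 were lower and 1 was higher, with a median log2 change of -1.36 against 0 over all genes. In the 3 recovery libraries the list's median was -1.14, -1.54 and -0.99. TRIB3, a pseudokinase induced by ATF4 and CHOP (chromosome 20, 380760 to 397559, GRCh38.p14), stood at 852, 760 and 935 CPM at 24 h and at 90.7, 35.5 and 86.1 CPM after recovery. The groups lay far apart, and the log2 change was -3.61 ± 0.27 (SE, edgeR adjusted p = 1.95e-08, n = 3 per group). STC2, which encodes the secreted glycoprotein stanniocalcin 2, went from 952, 898 and 992 CPM to 193, 119 and 169 CPM (log2 change -2.57 ± 0.16, edgeR adjusted p = 7.04e-10). SESN2, a stress-induced inhibitor of mTORC1 signalling, fell by 1.8, and CHAC1, a glutathione-degrading enzyme, by 1.55 on the log2 scale.

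DDIT3, which encodes CHOP itself, did not follow these genes. Its levels were 158, 154 and 135 CPM at 24 h and 88.4, 235 and 154 CPM after recovery, so the groups overlapped (log2 change 0.11 ± 0.23, edgeR adjusted p = 0.742). The values after recovery followed the order of the libraries, lowest in replicate 1 and highest in replicate 2, and without replicate 2 the change was -0.3. ATF3 was likewise not called, at 15.5, 20.5 and 17.8 CPM before and 16.3, 22.8 and 33.3 CPM after. GADD45A was the 1 member called higher, from 73.5, 67 and 59.7 CPM to 69.8, 124 and 98.6 CPM, but its groups overlapped and its change was -0.05 with an offset for gene span. In vehicle cells 3 regulators rose and 0 fell over the same time, and CHAC1 was among them (24.2 ± 8.24 to 81.1 ± 33.4 CPM, SD, n = 3).

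Genes that supply amino acids fell in all 3 recovery libraries. Of 16 synthesis enzymes 11 were lower and 1 higher (median -1.11; -1.15, -1.15 and -1.01 by library). ASNS, the asparagine synthetase, went from 352, 348 and 314 CPM to 65.1, 116 and 79.2 CPM (log2 change -1.95 ± 0.2, edgeR adjusted p = 1.18e-06). It moved the other way in vehicle cells, where its mean rose from 51 to 126 CPM (log2 change 1.28, edgeR adjusted p = 0.00285), and the difference between both changes was -3.23 (edgeR adjusted p = 4.97e-07). GPT2, a mitochondrial alanine transaminase, fell by 2.12, and the folate enzymes ALDH1L2 and SHMT2 fell by 2.05 and 1.5 on the log2 scale. SHMT1, the cytosolic partner of SHMT2, was the 1 enzyme called higher, from 81.8, 109 and 97.4 CPM to 228, 188 and 233 CPM. The pair of serine hydroxymethyltransferases thus moved in opposite directions in each recovery library.

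Amino acid transporters included 10 lower and 0 higher genes of 12 tested (median -1.39). SLC6A9, a glycine transporter, stood at 70.4, 83.3 and 80 CPM and then at 14, 5.47 and 6.95 CPM (log2 change -3.16 ± 0.32, edgeR adjusted p = 6.36e-07). SLC7A5, which imports large neutral amino acids, had a log2 change of -2.68, SLC38A1 of -1.73 and SLC1A5 of -1.65. In vehicle cells SLC7A5 also fell (-1.27, edgeR adjusted p = 0.0223), while SLC38A1 rose (0.61, edgeR adjusted p = 0.0308). The difference from vehicle was -1.4 for SLC7A5 (edgeR adjusted p = 0.0239). The cystine importer SLC7A11 went from 45.5, 50.8 and 39.8 CPM to 10.5, 26.4 and 11.1 CPM. Of 19 aminoacyl-tRNA synthetases, which charge transfer RNA, 14 were lower and 0 higher (median -0.98). WARS, the tryptophan enzyme, stood at 5230, 7250 and 3960 CPM before and 1750, 1350 and 1520 CPM after (log2 change -1.83 ± 0.2, edgeR adjusted p = 2.76e-06). GARS, the glycine enzyme, stood at 562, 537 and 528 CPM and then 196, 193 and 189 CPM. Without recovery replicate 2 the 3 lists still held 12, 8 and 13 lower genes.

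The CHAC1 promoter shows the sequence that ATF4 and C/EBP partners bind, searched here as TGATGNAAN on both strands. The motif was in 2 of 12 promoters of tested stress regulators found in the reference (16.7%; ATF3 and CHAC1), against 3.67% of all 27305 promoters. Promoters are RefSeq sequences on GRCh38.p14 from 250 bases before to 50 bases after the annotated start, written 5′ to 3′ on the gene's strand with matches in capitals on either strand. CHAC1 lies on the plus strand and its window is chr15:40953221-40953520.
CHAC1: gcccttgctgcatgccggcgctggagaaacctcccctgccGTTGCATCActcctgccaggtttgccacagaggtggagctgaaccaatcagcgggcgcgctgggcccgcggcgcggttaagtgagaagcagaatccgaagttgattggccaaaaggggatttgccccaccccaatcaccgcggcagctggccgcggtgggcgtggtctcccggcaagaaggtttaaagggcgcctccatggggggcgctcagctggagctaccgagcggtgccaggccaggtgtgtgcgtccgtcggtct

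Chaperones and degradation factors of the ER fell as a group. Of 33 tested 19 were lower and 3 higher, with a median log2 change of -0.78 and library medians of -0.76, -0.77 and -0.91. HSPA5, the ER chaperone BiP (chromosome 9, 125234853 to 125241343), stood at 6270, 6080 and 6400 CPM at 24 h and 1600, 1600 and 1510 CPM after recovery. This is a 3.98-fold decrease with almost no spread within either group (log2 change -1.99 ± 0.11, edgeR adjusted p = 2.89e-10). In vehicle cells its mean was 1820 CPM at 24 h and 1540 CPM after recovery. HERPUD1, of the ER degradation machinery, went from 701, 678 and 622 CPM to 201, 273 and 265 CPM, and DNAJB9, a BiP cochaperone, from 151, 157 and 137 CPM to 54.6, 80.2 and 66.7 CPM. HYOU1 fell by 1.71, the ubiquitin ligase SYVN1 by 1.57 and the translocon channel SEC61A1 by 1.49 on the log2 scale. The 3 members called higher were SEC61B, SELK and DERL2. SEC61B, the small subunit of the same translocon, rose from 25.9, 54.1 and 38.2 CPM to 75.6, 313 and 192 CPM, graded by library in the way the ribosomal protein genes were.

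The ER stress response element, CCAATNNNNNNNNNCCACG, which ATF6 reads next to the CCAAT-binding factor NF-Y, was found on either strand in 7 of 29 promoters of tested ER genes (24.1%), against 0.0806% of all promoters and 0.172% of those of tested genes. The list is made of known targets of the response, so this share describes the list. Of the 7 genes 6 were lower after recovery (CALR, CANX, CRELD2, HSP90B1, HSPA5 and XBP1), and ERO1LB had a log2 change of -0.92 (edgeR adjusted p = 0.0817). HSPA5 (minus strand, chr9:125241294-125241593), HSP90B1 (plus strand, chr12:103930160-103930459) and CRELD2 (plus strand, chr22:49918384-49918683) are shown because they carry the element in front of genes whose levels fell. HSP90B1 and CRELD2 were chosen after their values were seen.
HSPA5: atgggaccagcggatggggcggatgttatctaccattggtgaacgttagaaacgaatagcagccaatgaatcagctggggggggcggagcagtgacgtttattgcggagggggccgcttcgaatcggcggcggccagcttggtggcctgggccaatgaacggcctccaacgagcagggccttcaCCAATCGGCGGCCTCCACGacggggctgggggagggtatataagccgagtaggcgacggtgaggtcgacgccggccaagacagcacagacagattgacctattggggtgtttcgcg
HSP90B1: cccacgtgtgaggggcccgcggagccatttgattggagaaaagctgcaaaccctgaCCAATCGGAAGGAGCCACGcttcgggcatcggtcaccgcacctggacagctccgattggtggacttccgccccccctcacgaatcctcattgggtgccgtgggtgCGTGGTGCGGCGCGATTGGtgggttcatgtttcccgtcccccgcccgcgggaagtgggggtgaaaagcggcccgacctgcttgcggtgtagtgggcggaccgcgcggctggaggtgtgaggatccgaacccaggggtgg
CRELD2: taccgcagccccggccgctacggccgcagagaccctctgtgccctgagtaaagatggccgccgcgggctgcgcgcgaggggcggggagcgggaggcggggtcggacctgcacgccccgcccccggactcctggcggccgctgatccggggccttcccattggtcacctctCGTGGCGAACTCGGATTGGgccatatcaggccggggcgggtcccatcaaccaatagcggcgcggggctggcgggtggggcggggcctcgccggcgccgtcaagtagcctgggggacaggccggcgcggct
HSP90B1, the ER paralog of HSP90 with 2 copies of the element, went from 1790, 1730 and 1760 CPM to 927, 1290 and 925 CPM. CRELD2, an ER-resident folding factor with 1 copy, went from 78.7, 94.1 and 89.2 CPM to 60.5, 31.9 and 48.6 CPM.

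Some autophagy genes were lower as well. WIPI1, which binds the phosphoinositide of forming autophagosomes, stood at 300, 313 and 308 CPM before and 97.7, 126 and 100 CPM after (log2 change -1.5 ± 0.14, edgeR adjusted p = 3.87e-07). MAP1LC3B, the LC3B protein of autophagosome membranes, went from 622, 529 and 499 CPM to 170, 282 and 192 CPM. Its relatives GABARAPL2 and GABARAP went up by 1.8 and 1.34 on the log2 scale, highest in recovery replicate 2. Over the list 7 of 29 genes were lower and 3 higher (median -0.28), where 13.8% of all genes were lower and 19.5% higher. Lysosomal genes gave 5 lower and 4 higher of 30.

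Oxidative stress targets of NRF2 divided. TXNRD1, thioredoxin reductase, fell from 1070, 926 and 1070 CPM to 372, 388 and 350 CPM (log2 change -1.47 ± 0.15, edgeR adjusted p = 8.35e-07), close to its vehicle means of 360 and 341 CPM. OSGIN1 fell by 1.85 and SRXN1 by 1.12 on the log2 scale. SRXN1 changed by -1.56 in vehicle (edgeR adjusted p = 0.00192) and by -1.45 at 25 µM (edgeR adjusted p = 0.00345), and the difference from vehicle was not called. NQO1 was not called, at 254, 289 and 261 CPM and then 280, 435 and 349 CPM (log2 change 0.41, edgeR adjusted p = 0.0584), and neither was HMOX1 (-0.57, edgeR adjusted p = 0.193). PRDX1 and FTL, the ferritin light chain, were higher (1.57 and 1.15), both highest in recovery replicate 2. With the offset for gene span FTL changed by 0.2 and was no longer called (edgeR adjusted p = 0.214). In all, 6 of 21 were higher (28.6%) and 5 lower (23.8%), against 19.5% and 13.8% of all genes. MT2A, a zinc-binding metallothionein, spread from 135 to 592 CPM after recovery around 24 h values of 250, 298 and 245 CPM and was not called (log2 change 0.38, edgeR adjusted p = 0.368). The zinc exporter gene SLC30A1 had too few counts to be tested.

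Sterol synthesis rose. Of 21 enzymes 17 were higher and 0 lower, with a median log2 change of 1.05 and library medians of 0.88, 1.28 and 1.08. HMGCS1, which makes the precursor of mevalonate (chromosome 5, 43287470 to 43313412), went from 27.9, 26 and 43.3 CPM to 110, 233 and 197 CPM (log2 change 2.42 ± 0.29, edgeR adjusted p = 7.35e-06). FDPS, farnesyl diphosphate synthase, went from 243, 281 and 249 CPM to 832, 1760 and 1390 CPM (2.37 ± 0.19, edgeR adjusted p = 5.7e-08). Both groups were clear of each other for these genes, and vehicle means lay at 156 and 135 CPM for HMGCS1 and at 603 and 667 CPM for FDPS. TM7SF2 and EBP, later enzymes of the pathway, rose by 2.19 and 2.01 on the log2 scale, and CYP51A1 from 110, 112 and 120 CPM to 192, 217 and 186 CPM. In vehicle cells CYP51A1 fell over the same time, from a mean of 332 to 187 CPM, so both groups of cells ended near the same level.

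Genes that sense and export sterol did not move as 1 group. INSIG1, the ER anchor that restrains SREBP activation and is itself an SREBP target, rose from 316, 361 and 392 CPM to 786, 504 and 796 CPM. ACSS2, which makes acetyl-CoA from acetate, rose from 39.3, 47.6 and 50 CPM to 158, 86.5 and 132 CPM. Of 6 genes of sterol export and its control 0 were higher and 2 lower. The exporter ABCA1 fell from 62.1, 46.5 and 60.7 CPM to 30.2, 14.6 and 23.6 CPM (-1.34), while it rose in vehicle cells (1.16, edgeR adjusted p = 0.0371). NPC1, of late endosomes, fell by 1.52. SCD, the stearoyl-CoA desaturase, was not called (0.23, edgeR adjusted p = 0.323), and 1 of 19 fatty acid synthesis genes was higher and 0 were lower. Of the 21 tested sterol synthesis genes 16 had a promoter window in the reference, and HMGCS1 was not among them. The sterol regulatory element core TCACNCCAC was in 0 of these 16 windows and in 1.15% of all. At so low a share 16 windows cannot tell the list from other genes.

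Genes that respond to fatty acids included large decreases. ANGPTL4, a lipoprotein lipase inhibitor and PPAR target, stood at 32.1, 43.3 and 37.2 CPM and then at 3.49, 0 and 5.56 CPM (log2 change -3.79 ± 0.52, edgeR adjusted p = 3.73e-05), and its vehicle means were 0 and 0.153 CPM. PLIN2, which coats lipid droplets, went from 256, 264 and 306 CPM to 88.4, 178 and 128 CPM. At 25 µM ANGPTL4 was also lower after recovery (log2 change -5.83, edgeR adjusted p = 0.000344), while PLIN2 changed there by -0.37 (edgeR adjusted p = 0.433). Of 12 PPAR and lipid droplet genes 4 were lower (33.3%) and 2 higher (16.7%), against 13.8% and 19.5% of all genes. Fatty acid oxidation gave 8 higher (42.1%) and 0 lower of 19, against 19.5% and 13.8% of all genes. Without recovery replicate 2, 6 were higher, and the difference from vehicle was called positive for 5 and negative for 0. ETFB, an electron carrier of beta-oxidation, stood at 27.9, 35.7 and 26 CPM before and 67.4, 106 and 79.2 CPM after.

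Interferon response genes rose from low levels. Of 23 tested 13 were higher and 1 lower (median 1.1, library medians 0.72, 1.09 and 1.1). IFIT1, which binds viral RNA (chromosome 10, 89392623 to 89406487), went from 3.1, 4.33 and 5.61 CPM to 39.5, 66.5 and 45.8 CPM (log2 change 3.45 ± 0.34, edgeR adjusted p = 4.97e-07). ISG15, a ubiquitin-like modifier, went from 13.5, 7.57 and 7.65 CPM to 62.8, 160 and 115 CPM (3.61 ± 0.36, edgeR adjusted p = 7.23e-07), and MX1, an antiviral GTPase, from 2.07, 2.16 and 2.55 CPM to 16.3, 15.5 and 20.8 CPM. OAS1, an RNA sensor, had 2 counts in the 3 libraries at 24 h and 26 after recovery, a ratio of 18.7 after scaling with a 95% counting interval of 4.68 to 163. In vehicle cells IFIT1 averaged 31.2 and 34.1 CPM, MX1 13.8 and 16.6 CPM and ISG15 16.5 and 25.7 CPM at 24 h and after recovery. All 3 ISG15 values after recovery at 50 µM were above these vehicle means, a difference that was not tested. At 25 µM 9 of the 23 were higher after recovery and 0 lower, and the difference between both doses had an edgeR adjusted p of 0.0892 for IFIT1 and 0.336 for MX1.

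The core of the interferon-stimulated response element, TTTCNNTTT on either strand, was in 14 of 18 promoters of tested interferon genes (77.8%), against 10.6% of all promoters. As with the ER element, the list consists of known targets. Of the 14 genes 9 were higher after recovery. The promoters of IFIT1 (plus strand, chr10:89392373-89392672), ISG15 (plus strand, chr1:1013247-1013546) and MX1 (plus strand, chr21:41420308-41420607) are shown as those of the main genes above. IFIT1 has 3 matches, ISG15 has 2 that overlap and MX1 has 1.
IFIT1: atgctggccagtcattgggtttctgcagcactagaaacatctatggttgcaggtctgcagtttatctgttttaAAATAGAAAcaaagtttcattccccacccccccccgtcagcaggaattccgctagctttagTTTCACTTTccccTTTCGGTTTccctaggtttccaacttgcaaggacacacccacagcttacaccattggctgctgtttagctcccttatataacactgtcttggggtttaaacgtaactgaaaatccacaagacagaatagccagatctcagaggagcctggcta
ISG15: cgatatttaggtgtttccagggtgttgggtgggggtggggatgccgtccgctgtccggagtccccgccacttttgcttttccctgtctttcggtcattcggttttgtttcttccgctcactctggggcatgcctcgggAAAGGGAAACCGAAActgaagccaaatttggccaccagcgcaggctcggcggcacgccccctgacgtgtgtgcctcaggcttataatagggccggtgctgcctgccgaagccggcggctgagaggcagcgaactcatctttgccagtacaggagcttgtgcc
MX1: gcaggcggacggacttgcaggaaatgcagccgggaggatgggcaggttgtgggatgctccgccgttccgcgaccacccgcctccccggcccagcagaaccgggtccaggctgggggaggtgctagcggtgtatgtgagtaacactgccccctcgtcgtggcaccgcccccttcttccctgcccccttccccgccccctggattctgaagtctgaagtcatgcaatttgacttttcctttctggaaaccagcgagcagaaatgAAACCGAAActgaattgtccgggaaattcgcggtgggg

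Of 14 class I antigen presentation genes 5 were higher (35.7%, against 19.5% of all genes) and 0 lower. With the offset for gene span 3 were higher and 1 lower, and the list's median of 0.44 became -0.06. The difference from vehicle was called positive for 1 and negative for 2. B2M, the shared light chain of class I molecules, rose from 301, 357 and 295 CPM to 586, 2100 and 1150 CPM (log2 change 2.02 ± 0.28, edgeR adjusted p = 2.91e-05), and the immunoproteasome subunits PSMB8 and PSMB9 rose by 1.84 and 1.75. These genes were highest in replicate 2, and over the 14 tested genes of the list replicate 2 had a median of -0.29 against 0.35 and 0.61 in replicates 1 and 3. IRF1, a transcription factor of the interferon response, was lower, from 25.9, 57.3 and 56.1 CPM to 32.6, 14.6 and 32 CPM, with overlapping groups.

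Single genes of inflammation and matrix breakdown fell, while the NF-kB list was near the background. PTX3, the soluble pattern receptor pentraxin 3 (chromosome 3, 157436850 to 157443633), went from 223, 210 and 265 CPM to 20.9, 31.9 and 12.5 CPM (log2 change -3.36 ± 0.25, edgeR adjusted p = 1.95e-08). MMP1, interstitial collagenase, went from 135, 146 and 139 CPM to 9.3, 18.2 and 9.72 CPM (-3.43 ± 0.3, edgeR adjusted p = 1.29e-07). TLR4, the endotoxin receptor, fell from 25.9, 24.9 and 17.8 CPM to 9.3, 5.47 and 8.34 CPM. For these 3 genes every recovery library lay below every 24 h library. CXCL8, the chemokine IL-8, was not called (-0.66, edgeR adjusted p = 0.247), and SOD2 was higher (1.33). Of 33 listed NF-kB targets and cytokines 10 had enough counts to be tested, of which 2 were lower (20%, against 13.8% of all genes) and 1 higher.

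Genes that report activity of the MAPK pathway fell. Of 12 feedback genes 8 were lower and 1 higher (median -1.08). SPRY4, an inhibitor of growth factor signalling, went from 114, 136 and 135 CPM to 31.4, 7.29 and 33.3 CPM (log2 change -2.49 ± 0.36, edgeR adjusted p = 3.86e-05). PHLDA1 fell by 1.9, the ETS factor ETV4 by 1.76 and the phosphatase DUSP4 by 1.68, while DUSP14 rose from 130, 142 and 110 CPM to 228, 367 and 332 CPM. ETV4 changed by -0.99 in vehicle (edgeR adjusted p = 0.0678), and its difference from vehicle was not called (edgeR adjusted p = 0.14). Over the 12 genes that difference was called negative for 5 and positive for 1. Immediate early and AP-1 genes as a list were near the background. Of 18 tested 2 were higher (11.1%) and 3 lower (16.7%), against 19.5% and 13.8% of all genes. The difference from vehicle was called positive for 0 and negative for 1. The AP-1 subunit gene FOSL1 went from 373, 356 and 339 CPM to 165, 138 and 208 CPM, and MAFF from 44.5, 44.3 and 33.7 CPM to 5.81, 6.38 and 0 CPM. FOS and FOSB rose by 1.74 and 1.34 on the log2 scale. In vehicle cells FOS, FOSB and MAFF were called in the same directions over the same time (1.18, 1.46 and -2.11), and the edgeR test of the difference called none of the 3.

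Mitotic genes were higher. Of 45 tested 25 were higher and 0 lower (median 0.51, library medians 0.4, 0.75 and 0.44), and in vehicle cells 0 of the 45 were called. AURKA, the centrosome kinase, went from 424, 438 and 380 CPM to 663, 755 and 636 CPM (log2 change 0.73 ± 0.12, edgeR adjusted p = 0.000159). PTTG1, securin, rose from 49.7, 76.8 and 47.4 CPM to 153, 502 and 276 CPM, and UBE2C, of the anaphase-promoting complex, from 159, 202 and 147 CPM to 274, 829 and 445 CPM. KIF20A was called with a log2 change of 0.42, but lost the call in 8 of 17 alternatives, among them the span offset, the fit of the 6 libraries and the removal of any 24 h library. These changes were smaller than those of the stress and sterol genes, and without recovery replicate 2 16 of the 45 were called. Replication genes gave 11 higher (23.4%) and 3 lower of 47, near the 19.5% higher among all genes, with RRM2, a ribonucleotide reductase subunit, at 479, 549 and 514 CPM before and 579, 747 and 686 CPM after, and PCNA higher by 1.68.

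The cell cycle homology region TTTGAA, which the DREAM and MuvB complexes read, was on either strand in 27 of 39 promoters of tested mitotic genes (69.2%), against 15.4% of all promoters. The list is made of genes chosen for their part in mitosis, so this share describes the list. Of those 27 genes 18 were higher after recovery, beside 25 of the 45 tested genes of the whole list (55.6%) and 19.5% of all genes. Whether the motif goes with the rise was not tested. CCNB2, which encodes cyclin B2, is shown as an example chosen after its values were seen (plus strand, chr15:59104896-59105195), with levels of 197, 224 and 187 CPM before and 317, 482 and 395 CPM after.
CCNB2: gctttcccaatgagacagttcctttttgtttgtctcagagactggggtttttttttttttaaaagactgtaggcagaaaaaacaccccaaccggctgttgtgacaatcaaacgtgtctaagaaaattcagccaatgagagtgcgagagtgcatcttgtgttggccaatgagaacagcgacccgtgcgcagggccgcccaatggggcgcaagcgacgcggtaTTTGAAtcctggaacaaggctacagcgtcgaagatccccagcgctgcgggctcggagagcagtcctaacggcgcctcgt

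CDKN1A, the p21 inhibitor of cyclin-dependent kinases, was not called, with overlapping groups: 674, 732 and 760 CPM before and 896, 517 and 947 CPM after (log2 change 0.12 ± 0.18, edgeR adjusted p = 0.631). In vehicle cells it rose from a mean of 303 to 627 CPM, and the difference between both changes was -0.93 (edgeR adjusted p = 0.0151). Other p53 targets were mixed, 7 of 23 higher (30.4%) and 3 lower (13%), against 19.5% and 13.8% of all genes. TP53I3 rose from 26.9, 33.5 and 26 CPM to 57, 99.3 and 107 CPM, and PLK2, a centriole kinase, from 683, 639 and 654 CPM to 1830, 1760 and 1930 CPM (log2 change 1.48 ± 0.12). TP53I3 changed by 0.88 in vehicle (edgeR adjusted p = 0.0795), and its difference from vehicle was not called (edgeR adjusted p = 0.119). That difference was called for PLK2 (1.72). Over the 23 genes it was called positive for 3 and negative for 3. The death receptor TNFRSF10B, induced by CHOP, fell by 0.88. Of 22 genes of the BCL2 family and death receptors 5 were higher (22.7%), among them BAX and PMAIP1, and 4 lower (18.2%), among them XIAP and BCL2L1, near the 19.5% and 13.8% of all genes. PMAIP1 was no longer called with the offset for gene span (0.5, edgeR adjusted p = 0.0981). BAX changed by 1.11 in vehicle (edgeR adjusted p = 0.213), and its difference from vehicle was not called (0.21, edgeR adjusted p = 0.836).

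Cytoskeletal genes rose, 12 of 22 being higher and 0 lower (median 0.92). ACTG1, gamma actin, went from 2190, 1960 and 2310 CPM to 6430, 4150 and 6720 CPM (log2 change 1.42 ± 0.15, edgeR adjusted p = 1.92e-06), and the myosin light chain MYL6 from 531, 539 and 444 CPM to 1120, 3010 and 1870 CPM. ACTC1, cardiac actin, had 3 counts at 24 h and 30 after recovery, a ratio of 14.4 with a 95% counting interval of 4.47 to 73.7. Unlike the ribosomal protein genes, this list had its lowest median, 0.21, in replicate 2, against 0.83 and 0.97. At 25 µM 5 of the 22 were higher and 0 lower. Actin genes have near-identical copies, and how reads were divided among them is not stated in the labels.

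Matrix genes were heterogeneous. LOX, the lysyl oxidase that crosslinks collagen (chromosome 5, 122063195 to 122078259), fell from 1430, 1220 and 1350 CPM to 208, 120 and 167 CPM (log2 change -3.02 ± 0.17, edgeR adjusted p = 2.89e-10), and was low in all 3 recovery libraries. GREM1, a BMP antagonist, went from 366, 321 and 331 CPM to 102, 76.5 and 91.7 CPM. THBS2, thrombospondin 2, fell furthest in replicate 2. It went from 1590, 1590 and 1430 CPM to 677, 96.6 and 475 CPM. Over the 14 collagen processing genes 11 were lower and 1 higher, and the library medians were -0.61, -2.25 and -0.78. Without replicate 2, 9 were lower and 0 higher, and the difference from vehicle was called negative for 3 and positive for 1. SPARC was not called, at 1290, 1240 and 1150 CPM and 1160, 938 and 1100 CPM, and neither was COL5A2 (0.48, edgeR adjusted p = 0.112). Collagens as a list had medians of 0.55, -1.13 and 0.15. Of 15, 2 were higher and 2 lower (13.3% each, against 19.5% and 13.8% of all genes). TGFB2 rose from 90, 88.7 and 75.5 CPM to 229, 102 and 160 CPM, and its log2 change was 0.95 at 50 µM and 0.99 at 25 µM. The integrin subunit ITGB8 rose 8.24-fold, from 4.14, 4.33 and 3.57 CPM to 34.9, 29.2 and 34.7 CPM. Of the 11 integrins tested 6 were lower, ITGA11 by 2.11. Without replicate 2, 4 integrins were lower, and the difference from vehicle was called negative for 1 and positive for 1.

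Across all genes, the rule for the largest changes picked a set of low to moderate abundance. DCDC2, a doublecortin family gene, had 0 counts in all 3 libraries at 24 h and stood at 9.3, 8.2 and 8.34 CPM after recovery, at least 11.1-fold higher where a group without counts is set at 3 counts in all. ZBED2, a zinc finger transcription factor, went from 3.1, 0 and 2.55 CPM to 41.9, 25.5 and 25 CPM. Both were present in vehicle cells, DCDC2 at means of 6.58 and 6.97 CPM and ZBED2 at 27.7 and 22 CPM. GCHFR, the feedback regulator of GTP cyclohydrolase, had 2 counts at 24 h and 31 after recovery (ratio 22.3, 95% counting interval 5.67 to 192). In the other direction THBD, thrombomodulin (chromosome 20, 23045633 to 23049672), stood at 15.5, 10.8 and 22.9 CPM and had 0 counts after recovery, at least 14.7-fold lower by the same bound. NDRG1, a stress-induced gene, had 64 counts at 24 h and 1 after recovery (ratio 0.0225, 95% counting interval 0.00056 to 0.13). SERPINB2, TOX2 and KCNG1 each had 2 counts after recovery against 47, 43 and 44 at 24 h. SHISA2, FAM167A and DNER, the latter a Notch-related neuronal receptor, fell by 3.79, 3.19 and 3.18 on the log2 scale.

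**Figure D3:**
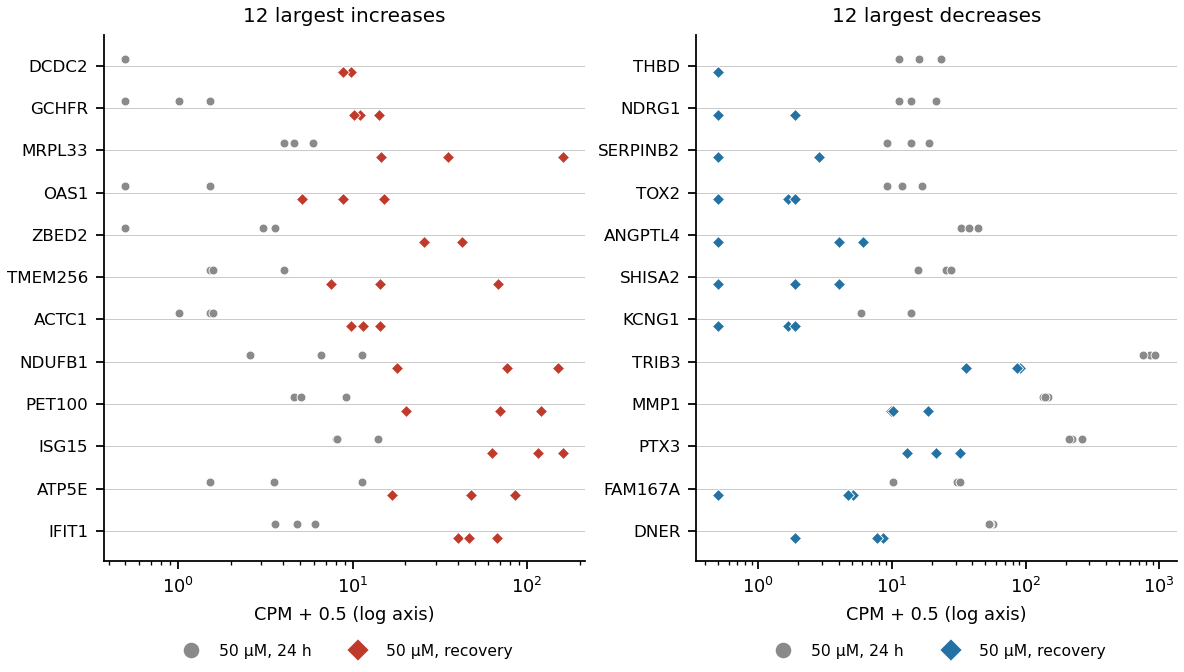
Each row is 1 of the 12 largest increases (left) or 12 largest decreases (right), and each symbol is 1 library, with CPM plus 0.5 on a log x axis. No recovery value (coloured diamonds) overlapped a 24 h value (grey circles) for these genes, and MRPL33, NDUFB1 and TMEM256 spread most among the recovery libraries.

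Components of the ribosome and of mitochondria made up the largest block of increases. Of 78 cytosolic ribosomal protein genes tested 74 were higher and 0 lower, with a median log2 change of 2.06 and library medians of 0.82, 2.74 and 1.97. Of 77 nuclear-encoded respiratory chain genes 67 were higher and 1 lower (median 2.01; 0.76, 2.67 and 1.8 by library), and of 75 mitochondrial ribosomal protein genes 53 were higher and 1 lower (median 1.18). RPS29, a small ribosomal subunit protein, went from 19.7, 28.1 and 35.2 CPM to 79.1, 514 and 215 CPM, and NDUFB1, of complex I, from 2.07, 10.8 and 6.12 CPM to 17.4, 149 and 76.4 CPM. MRPL33 went from 4.14, 5.41 and 3.57 CPM to 14, 160 and 34.7 CPM (log2 change 4.1 ± 0.66, edgeR adjusted p = 9.13e-05). The median of each of these 3 lists was above 0 in every recovery library but differed several times in size, smallest in replicate 1. For mitochondrial ribosomal protein genes it was 0.36, 1.71 and 0.99, and in replicate 1 57 of 75 genes lay above their 24 h mean. Without replicate 2, 39 genes of this list were higher, and the difference from vehicle was called positive for 37 and negative for 1. UQCRC1, a complex III core subunit, was the 1 respiratory chain gene called lower, at 502, 599 and 531 CPM and then 429, 314 and 478 CPM. Proteasome subunits (25 of 32 higher, 1 lower) and small nucleolar RNA host genes (11 of 15 higher, 0 lower) had the same order of libraries. The host gene count became 7 with the offset for gene span, 8 without recovery replicate 2 and 4 in the difference from vehicle. Among proteasome genes PSMD2, a large regulatory subunit, fell by 1.06.

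Summed over all 83 ribosomal protein genes in the table, these transcripts took 1.97%, 2.45% and 1.86% of counts at 24 h and 2.99%, 7.76% and 5.14% after recovery. The 95% Wilson intervals, which cover counting error only, were 2.96% to 3.03%, 7.71% to 7.81% and 5.09% to 5.19% after recovery. The means were 2.1% ± 0.314 and 5.3% ± 2.39 (SD, n = 3), and the groups did not overlap (exact permutation test, two-sided, p = 0.1, the smallest that 3 against 3 allows). Respiratory chain genes took 0.723%, 0.791% and 0.691% and then 1.02%, 2.3% and 1.58%. In the other 12 RNA-seq libraries the ribosomal protein share was 1.22% to 2.24%. Ribosomal protein genes have many processed pseudogenes, so the division of reads among copies is uncertain.

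Gene size moved with the same contrast. Across 9797 genes with a known genomic span the log2 change at 50 µM had a Spearman correlation of -0.18 with span, against -0.04 in vehicle and -0.15 at 25 µM. These are correlations across genes, which are not independent replicates. In the 981 genes with the shortest spans (median 3.72 kb) 423 were called higher and 67 lower, with a median change of 0.52, while in the 980 with the longest (237 kb) 100 were higher and 151 lower. The median span was 5.03 kb for the ribosomal protein genes and 10.6 kb for the respiratory chain genes tested, against 31.9 kb for all genes tested. With an offset for gene span the calls were 1879 higher and 1452 lower, 71 of the 78 ribosomal protein genes were still higher (median 1.59), and so were 67 of the 77 respiratory chain genes (median 1.75). Mitochondrial ribosomal protein genes went from 53 to 45 higher. The part of gene span, library composition or RNA quality in these increases was not tested beyond this offset.

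**Figure D4:**
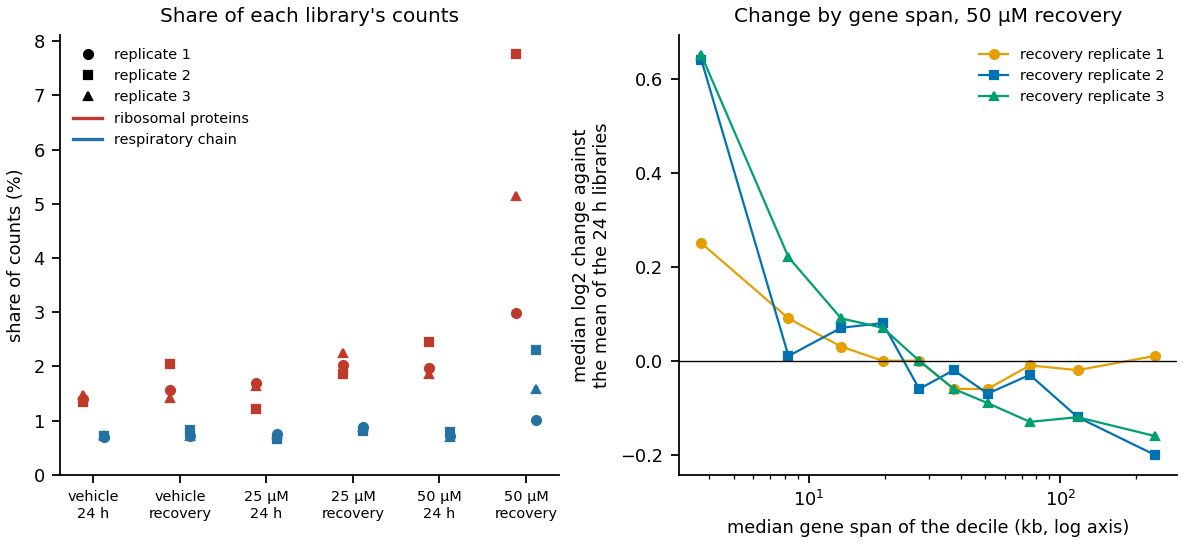
Left, share of each library's counts (y axis, %) taken by ribosomal protein genes (red) and nuclear-encoded respiratory chain genes (blue) in the 6 groups, with 1 symbol per library; the 50 µM recovery libraries hold the 3 highest ribosomal protein shares, 2.99% to 7.76%. Right, median log2 change per decile of gene span in each recovery library against the mean of the 24 h libraries, which is highest for the shortest genes (0.25, 0.64 and 0.65).

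Over the same time in vehicle cells the ER list had 0 of 33 genes called, the aminoacyl-tRNA synthetases 0 of 19, the interferon list 0 of 23 and sterol synthesis 0 higher and 1 lower of 21. The difference between the change at 50 µM and that in vehicle was called negative for 15 ER genes, 11 synthetases and 10 ATF4-CHOP regulators, and positive for 15 sterol synthesis and 11 interferon genes. HSPA5 differed by -1.76 and LOX by -2.61 (both edgeR adjusted p = 4.97e-07), and FDPS by 2.22 (edgeR adjusted p = 1.6e-05). At 25 µM TRIB3 changed by -1.45, HSPA5 by -0.93, LOX by -1.31 and IFIT1 by 2.1, all called. The edgeR test of the difference between both doses called TRIB3, HSPA5 and LOX, and not IFIT1 (adjusted p = 0.0892). The difference between both doses was called for 275 genes (2.79%), of which 173 were positive (1.76%) and 102 negative (1.04%), a count that ranged from 45 to 2267 when single libraries were left out. The lowest count came without 25 µM recovery replicate 2 and the highest without 50 µM recovery replicate 1.

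**Figure D5:**
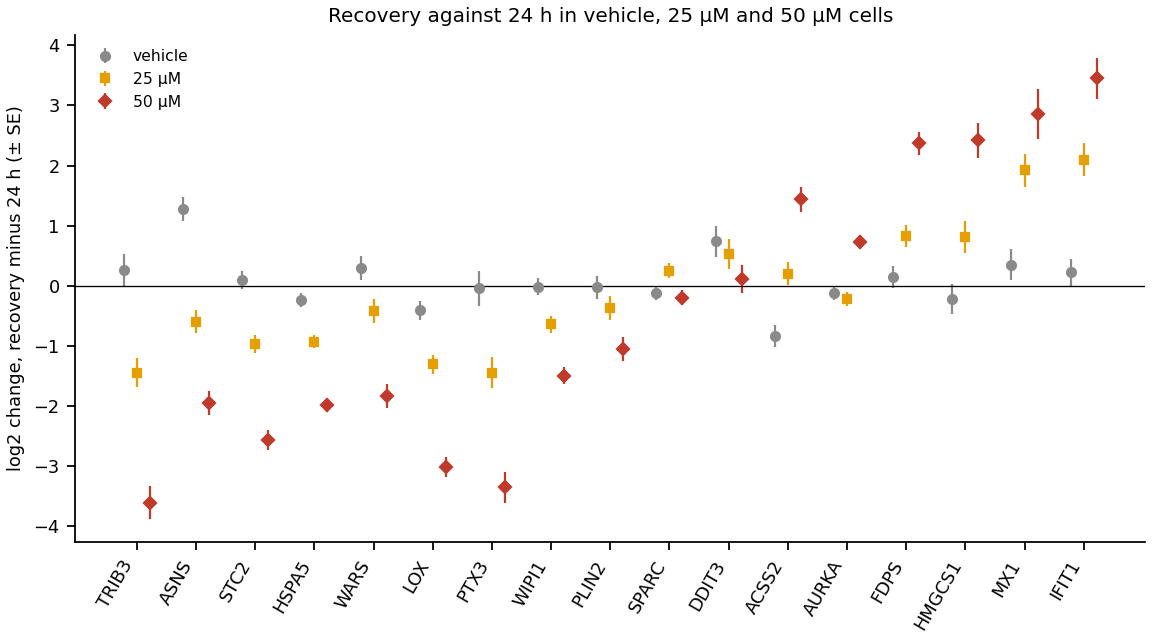
Log2 change from 24 h to recovery (y axis, ± approximate SE derived from the edgeR test) of selected genes in vehicle (grey), 25 µM (orange) and 50 µM cells (red). For TRIB3, HSPA5 and LOX the 50 µM value (-3.61, -1.99 and -3.02) is the lowest of the 3 and for IFIT1 and MX1 (3.45 and 2.86) the highest, while DDIT3 and SPARC were not called at 50 µM.

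Nuclear transcripts and carbohydrate genes complete the account. MALAT1 and NEAT1, long RNAs kept in the nucleus, rose by 1.42 and 0.83, MALAT1 from 37.3, 26 and 38.2 CPM to 93, 103 and 79.2 CPM. MALAT1 was not called in vehicle (0.71, edgeR adjusted p = 0.108), and the test of the difference did not call it either. Of 22 glycolytic genes 6 were lower (27.3%, against 13.8% of all genes) and 3 higher (13.6%, against 19.5%). GPI fell from 1400, 1610 and 1300 CPM to 864, 305 and 734 CPM, and the glucose transporter SLC2A3 by 1.15 on the log2 scale. LDHA rose from 1280, 1300 and 1170 CPM to 1420, 2160 and 1730 CPM. In vehicle cells LDHA fell, from a mean of 3040 to 1810 CPM. Ribosome biogenesis factors gave 11 lower (37.9%, against 13.8% of all genes) and 5 higher (17.2%, against 19.5%) of 29. The difference from vehicle was called negative for 2 of them and positive for 1. RRP12 fell by 1.6 and NOP10, a small protein of the H/ACA complex, rose by 2.47. Mitochondrial import and chaperone genes gave 16 higher (57.1%) and 7 lower (25%) of 28, and 8 and 4 without recovery replicate 2. For this list the difference from vehicle was called positive for 10 and negative for 3. The chaperonin gene HSPE1 rose from 11.4, 10.8 and 6.63 CPM to 29.1, 152 and 65.3 CPM. The protease gene LONP1 fell from 116, 80 and 142 CPM to 36, 10 and 26.4 CPM. The 8 genes with the widest range among the recovery libraries were led by VPS18, PLBD2 and MED16, which in replicate 2 stood at 1.82, 12.8 and 6.38 CPM and in replicate 1 at 41.9, 181 and 96.5 CPM.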

How the data were processed

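RNA was extracted with TRIzol and made into Smart-seq2 poly(A) libraries, per the labels' protocols, which name no molecular identifiers. The values deposited are whole-number counts, 1 row per gene symbol, among them older symbols (WARS, GARS, SELK), and the submitters' processing notes name Trimmomatic, STAR, DESeq2, MACS2 and GRCh38/hg38. For the counting tool, annotation and strand: not given in the sources used here. Symbols were matched to RefSeq (24180 of 25344, 95.4%).

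The counts were fitted with edgeR 4.0.16 (R 4.3.3; TMM scaling, filterByExpr with a minimum count of 10, quasi-likelihood test) over all 18 RNA-seq libraries, which share 1 estimate of spread, with Benjamini-Hochberg adjustment over 9847 genes. CPM values use total counts times the TMM factor. The quasi-likelihood test gives no SE, so the SE printed is the absolute log2 change divided by the square root of the test's F statistic. It is approximate. Alternatives used DESeq2 1.42.0, limma 3.58.1 and the settings in the closing section.

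Genes are named by a rule: the 12 largest increases and decreases without overlap among genes that average 5 CPM or more in 1 of both groups, a fixed panel, up to 4 called members per list and direction (otherwise the most abundant tested member), the 8 widest ranges among recovery libraries averaging 20 CPM or more, and the 5 largest differences per direction between time changes. The members and lists were chosen with earlier results of these data known, so no count over a list is independent evidence. Samples were grouped by their labels. Some genes that the rule names are not reported here.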

Additional observations from a re-analysis of the deposited data

Results flagged for a closer look

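The change from 24 h to recovery differed between cell groups by edgeR's test of the difference of time changes. It was called for 1878 genes at 50 µM against vehicle and for 275 genes at 50 µM against 25 µM. Against vehicle, the largest positive log2 differences among genes named by rule were 6.82 for DCDC2, 4.2 for ZBED2, 4.14 for GCHFR, and 3.86 for both FHDC1 and OAS1. The largest negative ones were -4.71 for NDRG1, -3.87 for TRIB3, -3.79 for SLC6A9, -3.61 for TOX2 and -3.44 for LMO4. Against 25 µM they were 5.4 for DCDC2, 3.65 for ZBED2, 3.33 for NDUFA1, 3.21 for NDUFB1 and 2.72 for COX6C, and -8.77 for THBD, -4.34 for NDRG1, -3.62 for TOX2, -2.48 for SLC6A9 and -2.21 for HKDC1. DCDC2 had no count at 24 h in 50 µM cells and THBD none after recovery, so their fitted differences depend on the prior count and are not sizes of change.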

How the results depend on the processing

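Depth limits mainly genes of low abundance, and the spread of the 3 recovery libraries limits the counts of calls. Of 124 called genes followed through the alternatives, 102 kept direction and call under every alternative run, and 22 lost the call under at least 1. Genes named only with their promoters (CALR, CANX, CRELD2, HSP90B1, XBP1, CCNB2 and ERO1LB) were not followed. GADD45A, called higher, had a log2 change of -0.05 with the gene span offset, also with the replicate block added. Genes not called changed sign as well, by leaving out single libraries or by other settings. DDIT3 ranged from -0.3 to 0.41 without single libraries and was -0.39 with the span offset and -0.42 with the block added. MT2A ranged from -0.3 to 0.76 and was -0.82 and -0.86 under the same settings. SCD ranged from -0.01 to 0.46 and CDKN1A from -0.03 to 0.35. Of the 10 genes followed that were not called, 7 passed under at least 1 alternative: NQO1, COL5A2, CXCL8, SCD, CDKN1A, MT2A and ATF3. The sample quality weights that limma estimated for recovery replicates 1, 2 and 3 were 0.354, 0.154 and 3.31. The causes were not tested.

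For recovery against 24 h at 50 µM, a fit of only the 6 libraries called 1397 genes, of which 1163 were at least 2-fold. Leaving out single libraries gave 2222 to 4313 called genes and 1103 to 2767 at least 2-fold. The difference in ribosomal protein share, 3.2 percentage points, ranged from 1.97 to 4.35. Vehicle cells had 96 called genes, against 152 with DESeq2, 224 with no filter, 335 with voom quality weights, 21 with libraries thinned to 582233 counts and 12 to 72 without single libraries. Cells at 25 µM had 149, against 230 with DESeq2, 328 with no filter, 1208 with only the libraries compared, 958 with voom, 73 when thinned and 42 to 100 without single libraries. The difference between 50 µM and vehicle had 1878, against 1022 with only the libraries compared, 2869 with voom, 1018 when thinned and 1188 to 3314 without single libraries. That between 50 µM and 25 µM had 275, against 694 with DESeq2, 999 with no filter, 52 with only the libraries compared, 1747 with voom, 91 when thinned and 45 to 2267 without single libraries. For the 4 comparisons other than the direct one, the fits of only the libraries compared, the span offset with the block and scaling without ribosomal protein genes were chosen after seeing the data.

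Same-numbered 50 µM libraries deviated from their group means with correlations of 0, 0.18 and 0.06, so the numbers were not taken to pair the samples. With the replicate block 3121 genes were called at 50 µM, 54 in vehicle, 118 at 25 µM, 1661 in the difference from vehicle and 169 in the difference from 25 µM, which became 150 with the span offset added.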
